A study of Mus musculus with 10 samples.

Results

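Tumour necrosis factor is made by macrophages as a membrane-bound protein, and 4 mouse genes stand at the centre of its release: Tnf, which encodes the cytokine, Adam17, which encodes the metalloprotease that cuts it from the cell surface, and Rhbdf1 and Rhbdf2, which encode the iRhom proteins that Adam17 depends on. They were taken by gene symbol from a table of 16936 protein-coding genes, and all 4 were found there. The table holds RNA-seq of mouse bone marrow-derived macrophages in 2 groups of 5 samples. The untreated group, and the group treated for 24 h with PLG (human plasminogen, the precursor of the clot-dissolving protease plasmin), had both been grown from marrow over 7 days in 50 ng/mL of the growth factor GM-CSF. No label gives a strain, age, sex, dose of PLG or vehicle, or ties a replicate to a mouse or a culture, so the p-values measure only the spread between these samples, which may be technical. The study's title places the comparison in macrophage activation through the receptor TLR2 by lipids that plasminogen carries.

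In macrophages Tnf is transcribed quickly after toll-like receptors are engaged, its mRNA is short-lived, and the protein travels through the Golgi to the surface as a trimer. iRhoms are members of the rhomboid family that have lost protease activity. They escort Adam17 out of the endoplasmic reticulum and stay bound to it at the surface, where the enzyme also cuts growth factor precursors, adhesion molecules and the Tnf receptors themselves. iRhom2, the product of Rhbdf2, is known as the main partner of Adam17 in immune cells, while iRhom1, the product of Rhbdf1, is broadly expressed in other tissues. Shedding is controlled largely at the protein level, which these data did not measure.

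The coding stretches that carry this chemistry are given below, 5′ to 3′ on the coding strand, from GENCODE M21 transcripts on GRCm38. For Tnf the capitals mark codons 79 and 80, on either side of the bond that Adam17 cuts. For Adam17 they mark the histidine codons 424, 428 and 434 of the zinc-binding motif. These codon numbers count along the transcript used here, which was taken from 10 annotated for Adam17. Another transcript or a reference protein may number the same histidines differently. For the iRhoms the capitals mark a glycine, a proline and a second glycine. These are codons 719, 720 and 722 of Rhbdf1 and 690, 691 and 693 of Rhbdf2. Active rhomboid proteases carry their catalytic serine just before the second glycine. That codon, in lower case between the marked ones, encodes alanine in both genes.
Tnf, chr17:35200883-35201108, codons 73 to 88, across 2 exons: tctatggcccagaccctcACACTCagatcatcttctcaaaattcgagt
Adam17, chr12:21336726-21336770, codons 422 to 436: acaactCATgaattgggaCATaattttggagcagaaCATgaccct
Rhbdf1, chr11:32210197-32210406, codons 715 to 726, across 2 exons: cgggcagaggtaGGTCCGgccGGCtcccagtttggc
Rhbdf2, chr11:116599412-116600069, codons 686 to 697, across 2 exons: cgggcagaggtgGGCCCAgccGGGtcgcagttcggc
Both iRhom genes thus encode the inactive form of the motif. The proteins encoded by these transcripts hold 235 residues for Tnf, 846 for Adam17, 856 for Rhbdf1 and 827 for Rhbdf2. The iRhoms were identical at 500 of 811 aligned residues (61.7%), and their coding sequences shared no run longer than 35 bases.

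The annotated genes all lie on the minus strand of GRCm38. Tnf (ENSMUSG00000024401.14) spans chr17:35199381-35202007 in 4 exons, and Adam17 (ENSMUSG00000052593.16) spans chr12:21323509-21373632 in 20. Rhbdf1 (ENSMUSG00000020282.18) lies at chr11:32209585-32222300 with 18 exons, and Rhbdf2 (ENSMUSG00000020806.15) on the same chromosome at chr11:116598165-116627019 with 19. Exon counts are those of the transcripts used above. The 250 bases before the starts of Tnf and Adam17 are given next, as the promoter source used held no entry for Rhbdf1 or Rhbdf2. Whether these sequences bear on the mRNA levels was not tested. They come from RefSeq on GRCm38.p6, are written 5′ to 3′ on the minus strand, and carry motif matches in capitals.
Tnf, chr17:35202008-35202257: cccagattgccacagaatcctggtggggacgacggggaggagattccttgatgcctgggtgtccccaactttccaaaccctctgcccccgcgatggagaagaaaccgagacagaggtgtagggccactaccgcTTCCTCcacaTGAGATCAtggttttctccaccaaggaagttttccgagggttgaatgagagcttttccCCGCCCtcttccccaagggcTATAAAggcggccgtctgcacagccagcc
Adam17, chr12:21373633-21373882: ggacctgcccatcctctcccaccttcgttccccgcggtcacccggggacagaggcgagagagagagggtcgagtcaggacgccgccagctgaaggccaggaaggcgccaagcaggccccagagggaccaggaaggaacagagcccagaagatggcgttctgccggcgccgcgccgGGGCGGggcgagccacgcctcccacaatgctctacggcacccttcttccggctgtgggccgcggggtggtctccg
Both strands were searched for 7 motifs, and positions count back from -1, the base before the start. Tnf held a TATA box (TATAAA) at -29 to -24, which 12.4% of 32851 promoters of this length hold. It also held a match to a cAMP-response-element-like motif (TGANNTCA, in 11.9% of promoters) at -107 to -100, a PU.1-like motif (GAGGAA, in 23.3%) on the reverse strand at -117 to -112 and a GC box (GGGCGG, in 32.7%) on the reverse strand at -49 to -44. Of these, Adam17 held only a GC box, at -75 to -70, and its window was 70.4% G and C, against 57.6% for Tnf and a median of 52.4%. Neither window held the AP-1-like motif (TGANTCA, in 6.7%), the NF-kB consensus (in 7.3%) or a CCAAT box (CCAAT, in 33.8%). None of the matches overlapped another, and a match describes letters only.

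Reads assigned to the genes of the table ranged from 28426106 in untreated 4 to 64214551 in PLG 5. Samples correlated at 0.976 or more within groups and at 0.847 to 0.868 between groups (Pearson's r across genes of log2(FPKM + 1)). The libraries differed within groups in 3 repeat-like gene models, Gm10800, Gm10801 and Gm21738, which held 0.77% to 27.85% of summed FPKM (fragments per kilobase of gene length, scaled to the library's reads) and were low in untreated 2, PLG 3 and PLG 4. All 8 macrophage and myeloid markers were expressed in both groups, with summed levels of 5895 to 7421 FPKM in untreated and 3140 to 3245 FPKM in PLG samples. Most of that sum was Lyz2, which fell from 5792 to 2000.1 FPKM, while Cd14 rose from 33.7 to 508 FPKM and Adgre1 from 80.02 to 177 FPKM. The 6 dendritic cell markers were expressed as well, at 2686 to 3216 FPKM and 2527 to 2955 FPKM in sum, within which Ccr7, Flt3 and Zbtb46 rose (Ccr7 from 38.1 to 542 FPKM) and Cd74, Itgax and H2-Ab1 fell. None of 7 T and NK cell markers or 5 B cell markers reached the level needed for testing, and Cd3e and Nkg7 stayed under 0.05 FPKM in every sample. Neutrophil markers summed to 11.02 to 20.6 and 17.5 to 26.9 FPKM, with Ly6g and Mpo at 0 in the untreated samples, and mast cell and basophil markers to 7.40 to 17.2 and 8.24 to 11.8 FPKM. Of 6 stromal and endothelial markers 1 passed the filter, Pdgfrb, and their sum was 1.04 to 1.95 FPKM in untreated and 5.97 to 7.24 FPKM in PLG samples. Of 3 erythroid and megakaryocyte markers analysed 1 passed, Pf4, and the sums were 42.3 to 58.5 and 89.2 to 106.1 FPKM. Flt3 and Pdgfrb passed the filter only through the PLG samples and had to differ, so their shifts are a description. The part of these marker shifts in the results was not tested.

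Tnf was higher in every PLG sample than in any untreated sample and became the most abundant of the 4 mRNAs by FPKM. The untreated samples held 13.5, 15.4, 14.3, 10.2 and 14.5 FPKM (replicates 1 to 5), counted from 534 to 977 reads. The PLG samples held 107, 122.4, 124.6, 119.7 and 117.8 FPKM, from 7720 to 13662 reads. The groups were far apart, since the lowest PLG sample stood 6.97 times above the highest untreated sample. The means were 13.6 ± 2.001 and 118.3 ± 6.85 FPKM (SD, n = 5 each), a ratio of 8.71. On the scale of log2(FPKM + 1), which understates changes of low genes, the difference was 3.04 (SE 0.09, 95% interval 2.85 to 3.24), with an adjusted p of 4.8e-12 in limma fitted across 9997 genes. A two-sided exact permutation test over the 252 assignments of samples gave p = 0.00794, the smallest it can give. Many genes responded, as 29.1% of genes tested passed in the upward direction, 31.3% in the downward and 60.4% in either. Within that response Tnf held place 91 among the rises, and 0.91% of genes tested rose as much or more. Its rank by FPKM among all genes moved from 2614 to 3641 in untreated samples to 235 to 307 in PLG samples. In bulk RNA, more cells expressing a gene and more RNA per cell cannot be told apart.

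**Figure D1:**
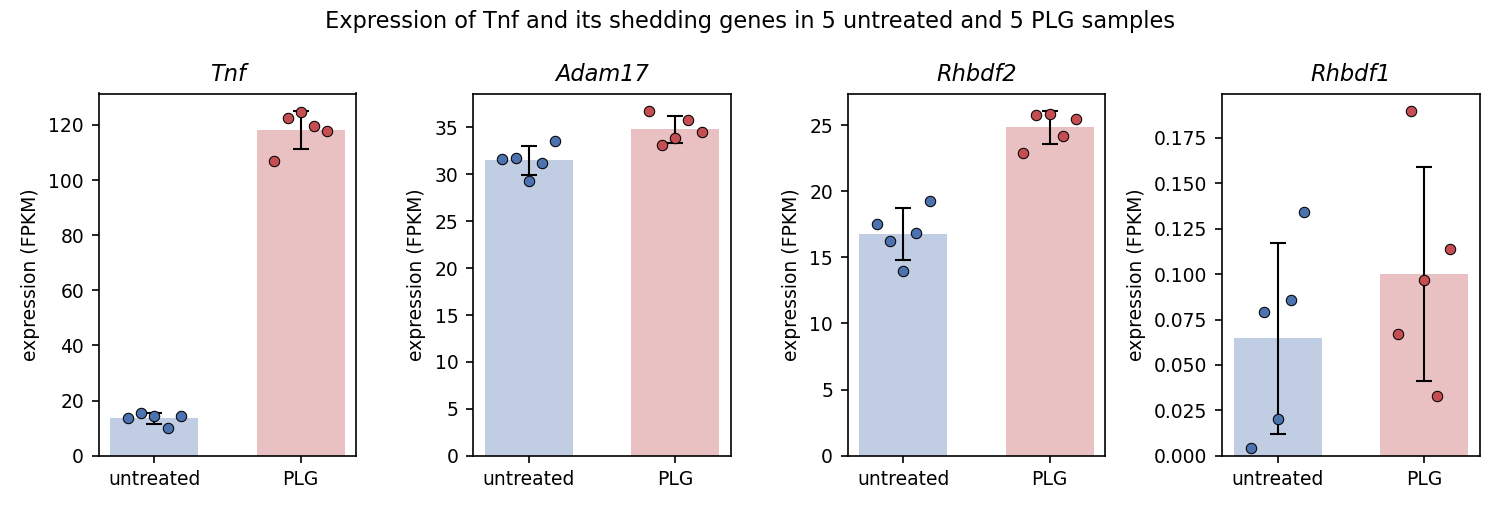
Expression of Tnf, Adam17, Rhbdf2 and Rhbdf1 in FPKM, with a separate vertical axis from 0 for each gene. Points are the 5 untreated and 5 PLG samples in replicate order, bars are means and whiskers are SD. Tnf and Rhbdf2 show no overlap between groups, Adam17 overlaps narrowly, and Rhbdf1 lies under 0.2 FPKM throughout.

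Adam17, the sheddase, was expressed in both groups, with a mean 10.5% higher in PLG samples. The untreated samples held 31.6, 31.8, 29.3, 31.2 and 33.6 FPKM, and the PLG samples 36.8, 33.1, 33.8, 35.8 and 34.5 FPKM. The groups overlapped, because untreated 5 stood above PLG 2. The means of 31.5 ± 1.52 and 34.8 ± 1.48 FPKM (SD, n = 5 each) gave a ratio of 1.10. The log2 difference of 0.14 (SE 0.05, 95% interval 0.04 to 0.24) passed with an adjusted p of 0.0236 in limma, and the exact permutation p was 0.0159. Of genes tested, 35.1% rose as much or more. The call did not hold under 7 of 23 alternatives. It was lost without untreated 3 (adjusted p = 0.0604), without PLG 1 (0.0675) or without PLG 4 (0.0555) in limma, and the log2 difference was 0.03 (adjusted p = 0.615) after quantile normalization.

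**Figure D2:**
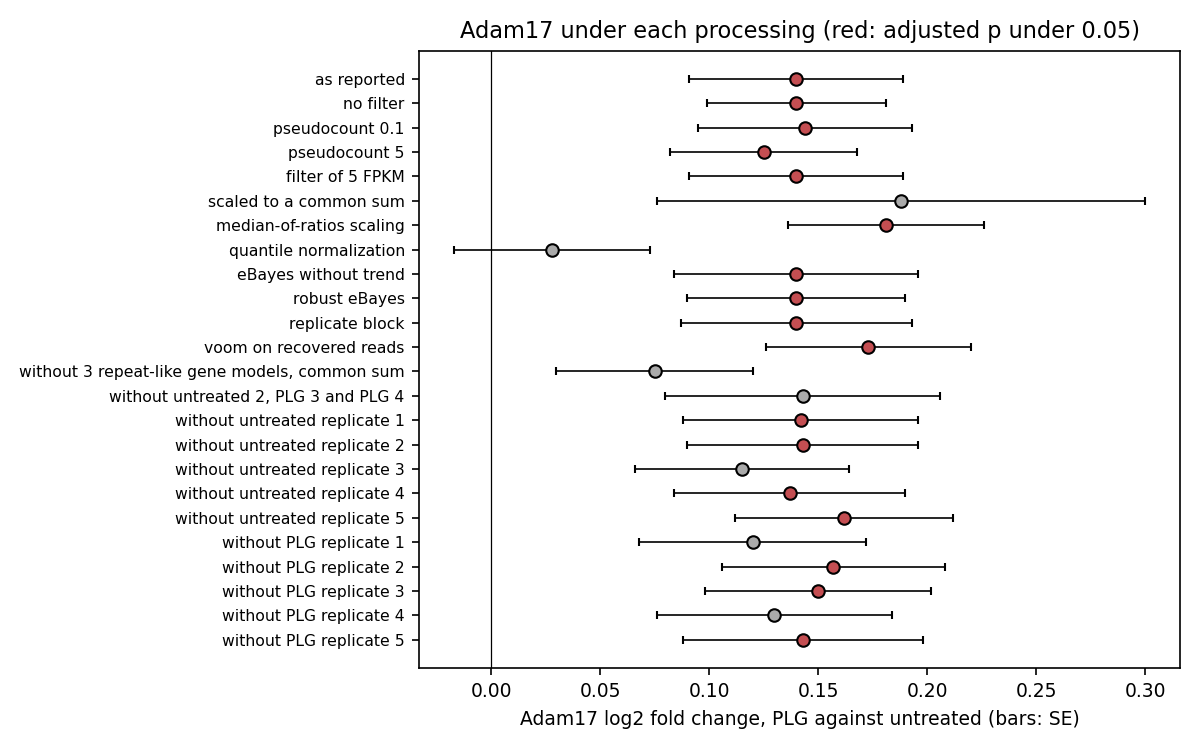
Log2 difference of Adam17 between PLG and untreated samples (horizontal axis, bars are SE) under the processing reported and each of 23 alternatives. Red points have an adjusted p under 0.05. Every estimate is above 0, from 0.03 to 0.19, and 7 alternatives are grey.

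Adam17 shares a short stretch with Iah1, an esterase gene on the opposite strand, whose end overlaps the end of Adam17 by 311 bases. No source used here states whether counting used strand, and reads from that stretch cannot be told apart. Iah1 itself measured 10.7 ± 0.93 and 10.2 ± 1.36 FPKM (adjusted p = 0.517 in limma).

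The iRhom genes were unequal in these cells. Rhbdf2 measured 17.5, 16.2, 13.9, 16.8 and 19.3 FPKM in untreated samples and 22.9, 25.7, 25.8, 24.1 and 25.5 FPKM in PLG samples. Every PLG sample stood above every untreated sample, a separation in this direction that 22.7% of genes tested showed and that Tnf showed too. The means were 16.8 ± 1.94 and 24.8 ± 1.26 FPKM (SD, n = 5 each), a rise of 48.1%. The log2 difference was 0.55 (SE 0.07, 95% interval 0.39 to 0.71), with an adjusted p of 2.14e-05 in limma and an exact permutation p of 0.00794. Of genes tested, 15.3% rose as much or more.

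Rhbdf1 was close to undetected. Its levels were 0.004, 0.079, 0.02, 0.086 and 0.134 FPKM in untreated samples, from 1, 14, 4, 15 and 30 reads. PLG samples held 0.067, 0.19, 0.097, 0.033 and 0.114 FPKM, from 18, 42, 20, 8 and 44 reads. The groups overlapped widely, and samples of 1 group differed beyond counting error: the exact Poisson 95% interval was 0.0001 to 0.0241 FPKM in untreated 1 and 0.0906 to 0.192 FPKM in untreated 5. These intervals cover counting error only. With means of 0.0646 ± 0.0528 and 0.1002 ± 0.0589 FPKM (SD, n = 5 each), Rhbdf1 was under the filter of 1 FPKM in 5 samples that the other 3 genes passed. A limma fit without the filter, in which 39.9% of 16927 genes passed in either direction, gave a log2 difference of 0.05 (95% interval -0.05 to 0.14, adjusted p = 0.455). The exact permutation p was 0.365. A pseudocount of 1 hides changes at this level. With one of 0.1 the difference was 0.30 (SE 0.27), and the estimates ran from -0.01 to 1.11 over 21 alternatives, none of which passed.

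Set within each library, the balance of the 4 mRNAs changed. In untreated samples Adam17 was highest and Rhbdf2 and Tnf followed with overlapping ranges, in that order in 4 of 5 samples. In PLG samples the order was Tnf, Adam17, Rhbdf2 and Rhbdf1, and no neighbours overlapped. FPKM are scaled to a single length per gene, so comparisons between genes assume that this length fits the transcripts expressed, which was not tested. The ratio of Tnf to Adam17 FPKM was 0.428, 0.483, 0.488, 0.326 and 0.432 in untreated samples and 2.91, 3.70, 3.68, 3.35 and 3.42 in PLG samples. By FPKM, Tnf mRNA was therefore the scarcer of the pair in all 5 untreated samples and the more abundant in all 5 PLG samples. As log2 of (FPKM + 1), the ratio moved from -1.17 ± 0.22 to 1.74 ± 0.14 (SD, n = 5 each), a difference of 2.90 with an exact permutation p of 0.00794. This difference follows that of Tnf (3.04, beside 0.14 for Adam17), so its p is no support separate from the Tnf test. The ratio of Rhbdf2 to Rhbdf1 FPKM was 4380.25, 205.5, 696.9, 195.6 and 143.8 in untreated samples and 342.1, 135.5, 266.2, 731.4 and 223.5 in PLG samples. These plain ratios overlapped and rest on the few reads of Rhbdf1, so no shift between the iRhoms can be read from them. As log2 of (FPKM + 1), where Rhbdf1 adds almost nothing, the ratio went from 4.05 ± 0.13 to 4.55 ± 0.06, a difference of 0.50 with an exact permutation p of 0.00794. That value follows Rhbdf2 and depends on the pseudocount, since with 0.1 the difference was 0.27 (exact permutation p = 0.278).

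**Figure D3:**
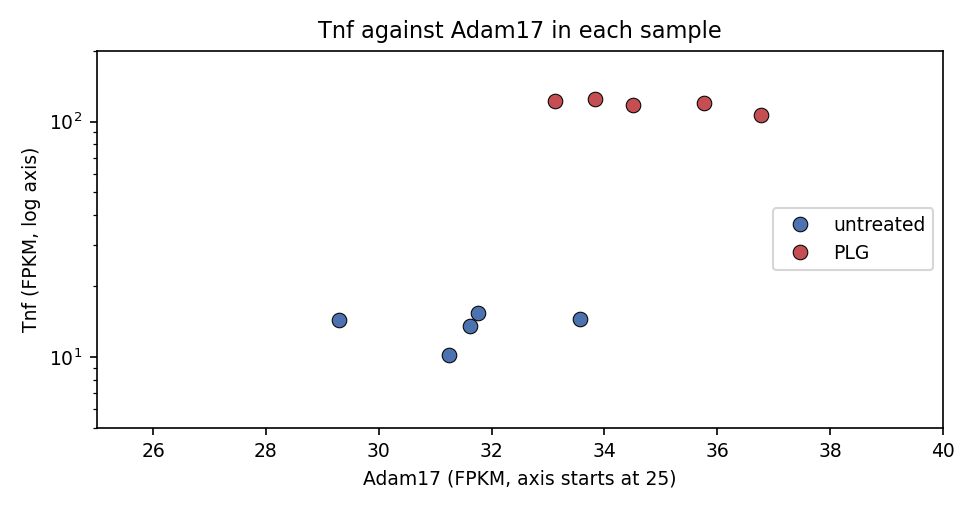
Tnf FPKM (vertical, log axis) against Adam17 FPKM (horizontal, from 25) in each of 10 samples. The groups separate along the Tnf axis, at 10.2 to 15.4 and 107 to 125 FPKM, while along the Adam17 axis untreated 5 lies to the right of PLG 2.

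The samples also differed within groups, and not in the same order for each gene. Untreated 3 was lowest and untreated 5 highest of the untreated samples in both Adam17 and Rhbdf2, while untreated 4 was lowest in Tnf. Among PLG samples, PLG 1 was lowest in Tnf and in Rhbdf2 and highest in Adam17. With 5 samples a group these orders are a description.

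The genes whose levels ran most alike across the 10 samples were ranked by Pearson's r of log2(FPKM + 1) among 8508 genes, a description in which the groups set most of the value. For Tnf they were Ets2, a transcription factor (r = 0.9988), Cd38, an ectoenzyme (0.9985), and Gbp2, an interferon-inducible GTPase (0.9984), and 1103 genes exceeded 0.95. For Rhbdf2 they were Fam20b (0.9857), a kinase of proteoglycan synthesis, Mt2 (0.9837), a metallothionein, and Zfp869 (0.9773), with 72 genes over 0.95. Adam17 had 1 gene over 0.95, Dip2b (0.9567), followed by Zfp386 (0.9479) and Prdx2 (0.9456), a peroxiredoxin. Rhbdf1 had none, and its nearest were Llgl2 (0.846), Mbd1 (0.8441) and Osgin1 (0.828).

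Tnf lies in a cluster with the related cytokine genes Lta and Ltb. Lta, which encodes lymphotoxin alpha and lies 1157 bases upstream of the Tnf start, was at 0 to 0.616 FPKM in untreated and 3.37 to 5.93 FPKM in PLG samples, so the groups were apart. It passed the filter only through the PLG samples and had to differ, so its test is no support. Ltb, 3060 bases past the other end, went the other way, from 3.95 ± 2.14 to 1.40 ± 0.65 FPKM (log2 difference -0.97, adjusted p = 0.00591 in limma), with overlapping samples. Farther out, Nfkbil1 rose from 3.996 to 7.91 FPKM and Aif1, a macrophage actin-binding protein gene, fell from 4.41 to 1.91 FPKM. Gm16181, which lies inside Nfkbil1 and may share its reads, rose from 0.757 to 5.40 FPKM. Lst1 rose from 6.34 to 9.67 FPKM with an adjusted p of 0.0366 in limma, a call lost under 11 of 23 alternatives, among them without untreated 1, 2 or 3 or PLG 1, 2 or 3. The cluster thus held neighbours that moved in opposite directions.

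**Figure D4:**
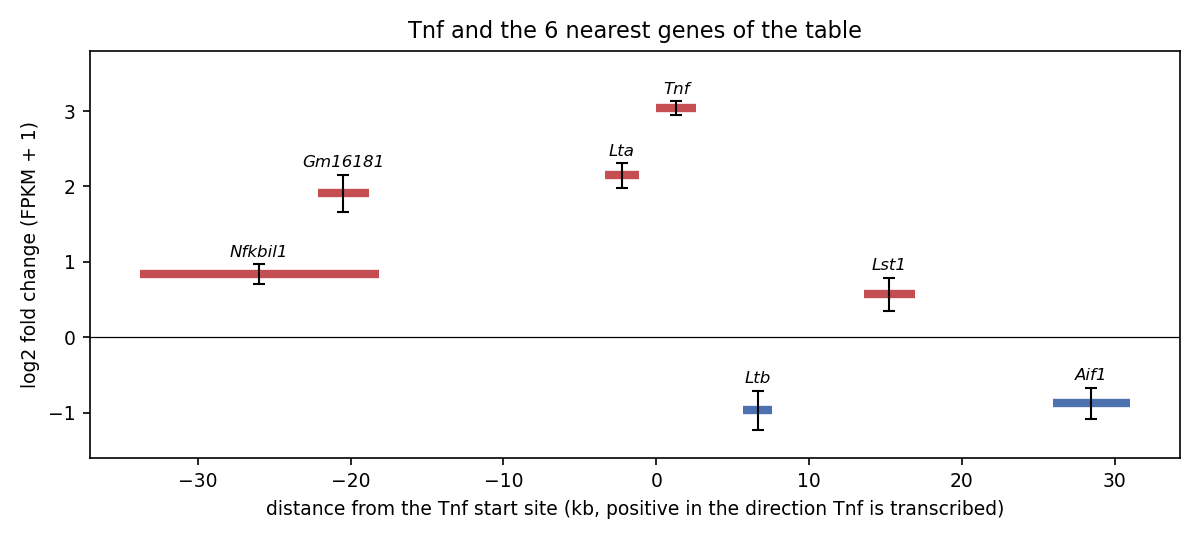
Log2 fold change of FPKM + 1 between PLG and untreated samples (vertical, bars are SE) for Tnf and the 6 nearest genes of the table, drawn at their distance from the Tnf start in kb (horizontal). Red genes rose and blue genes fell, and Tnf at 3.04 and Lta at 2.15 stand highest.

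The neighbours of the other genes were mixed. Next to Adam17, Ywhaq measured 27.7 and 27.8 FPKM, while Cpsf3, of the mRNA 3′ end machinery, fell from 9.86 to 7.83 FPKM (adjusted p = 0.00102 in limma), a call lost when libraries were scaled to a common sum (0.0891). The differences of Itgb1bp1 and Taf1b (3124726 bases away), on the sides of Adam17, and of Sphk1, on the side of Rhbdf2, also passed. Their adjusted p values were 0.025, 0.0462 and 0.0363 in limma, and the calls were lost under 5 of 23, 13 of 22 and 11 of 23 alternatives. Leaving out 1 sample was enough for each: untreated 1 or 3 or PLG 2 for Itgb1bp1, untreated 2, 3 or 5 or PLG 1, 2, 3 or 4 for Taf1b, and untreated 1, 3 or 5 or PLG 2, 3, 4 or 5 for Sphk1. Next to Rhbdf1, Snrnp25 measured 5.81 and 4.63 FPKM, Nprl3 1.73 and 1.67 FPKM and Sh3pxd2b 60.5 and 65.5 FPKM, and none of them passed. Next to Rhbdf2, Aanat measured 1.09 and 1.27 FPKM and did not pass, and Ube2o, a ubiquitin-conjugating enzyme gene, rose from 3.67 to 7.13 FPKM (adjusted p = 5.59e-06 in limma).

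Genes that act with Adam17 included rises and falls. Of 20 partners and regulators 19 were tested, and 2 rose, 8 fell and 9 did not pass, with a median log2 difference of -0.03 beside -0.02 over all genes tested, of which 29.1% rose and 31.3% fell. With libraries scaled to a common sum 1 rose and 5 fell, and with median-of-ratios scaling or voom on recovered reads 4 rose and 7 fell. With quantile normalization 1 rose and 12 fell. Furin, the convertase that removes the inhibitory prodomain of Adam17, fell from 51.0 ± 3.79 to 29.8 ± 1.88 FPKM (log2 difference -0.75, adjusted p = 1.27e-07 in limma). Pacs2, a sorting protein that recycles Adam17 to the surface, fell from 33.4 to 23.9 FPKM, and Cd9, a tetraspanin that binds the enzyme, from 338 to 228 FPKM. Plk2, a kinase that phosphorylates Adam17, rose from 52.0 ± 4.31 to 110 ± 5.65 FPKM (log2 difference 1.07, adjusted p = 2.9e-09 in limma). The disulfide isomerase gene P4hb (195.3 and 206.9 FPKM) and the 14-3-3 gene Ywhaz (134.5 and 139.4 FPKM) did not pass. Frmd8, which stabilises the iRhom complex at the surface, and Timp3, the natural inhibitor of Adam17, were singled out after their values were seen. Frmd8 measured 14.6 ± 2.21 and 15.5 ± 1.37 FPKM (adjusted p = 0.469 in limma). Timp3 was under the filter at 0.077 ± 0.040 and 0.587 ± 0.133 FPKM, and every PLG sample stood above every untreated sample. Among genes tested, which leave out Timp3, 22.7% showed such a separation. In the fit without the filter, where 39.9% of 16927 genes passed in either direction, its log2 difference was 0.56 (adjusted p = 1.72e-05 in limma).

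Among the other membrane-bound sheddases, Mmp14, Adam8 and Adam19 rose and Adam10 fell. Of 11 listed, 7 were tested, and 3 rose, 2 fell and 2 did not pass (median log2 difference 0.05), a share called near the 60.4% of all genes tested. Adam12, Adam33 and Bace2 were under the filter and Adam28 was not analysed here. Mmp14, a matrix metalloprotease anchored in the membrane, rose from 33.6 ± 1.60 to 87.0 ± 3.36 FPKM (log2 difference 1.35, adjusted p = 1.95e-11 in limma). Adam8 rose from 58.3 to 107 FPKM and Adam19 from 2.57 to 12.7 FPKM. Adam10, the closest relative of Adam17 in the family, fell from 49.6 ± 1.59 to 29.1 ± 1.93 FPKM (log2 difference -0.75, adjusted p = 1.93e-08 in limma). By FPKM, Adam10 mRNA was thus above Adam17 in all untreated samples and below it in all PLG samples. Adam9 (35.9 and 36.2 FPKM) and Bace1 (2.63 and 2.77 FPKM) did not pass.

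Among 12 other genes of the rhomboid superfamily 8 were tested, and 3 rose, none fell and 5 did not pass (median log2 difference 0.02). Scaled to a common sum, or without untreated 2, PLG 3 and PLG 4, only 1 rose. Rhbdl1, Rhbdl3 and Derl3 were under the filter and Rhbdl2 was not analysed here. Ubac2 rose from 10.3 to 14.6 FPKM. Derl2, of the endoplasmic reticulum degradation pathway, rose from 6.20 to 7.69 FPKM (adjusted p = 0.0118 in limma), a call lost with a common sum and without untreated 2, PLG 3 and PLG 4 together. Rhbdd2 rose from 1.53 to 1.97 FPKM (adjusted p = 0.0383), and that call was lost under 12 of 22 alternatives, among them without untreated 2, 3 or 4 or any single PLG sample. Rhbdd1 (8.20 and 7.31 FPKM), Derl1 (31.9 and 31.2 FPKM) and Tmem115 (14.2 and 14.7 FPKM) did not pass. The log2 difference of Rhbdf2, 0.55, was above that of each of these 6 genes, of which Ubac2 at 0.47 came nearest.

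Other proteins that Adam17 is known to shed included genes with large differences in both directions. Of 29 listed 23 were tested, and 14 rose, 8 fell and 1 did not pass, with a median log2 difference of 0.66, where 60.4% of all genes tested passed in either direction. Areg, Hbegf, Ereg and Vcam1 entered the test only through the PLG samples, so they had to differ and their part of the count and the median is no support. They dropped out with a filter of 5 FPKM or without any single PLG sample, which left 10 that rose and 8 that fell. Without the filter 14 rose and 10 fell. Epgn, Cd163, Lag3 and Tnfsf11 were among those under the filter and Tgfa was not analysed here. Cd40, a costimulatory receptor, rose from 1.08 ± 0.31 to 27.7 ± 3.62 FPKM (log2 difference 3.79, adjusted p = 4.95e-12 in limma). The proteoglycan gene Sdc4 rose from 4.88 to 35.05 FPKM. Ereg, a ligand of the epidermal growth factor receptor, was at 0 to 0.024 FPKM in untreated samples and 3.44 to 4.59 FPKM in PLG samples. Trem2, a lipid-sensing receptor of macrophages, fell from 46.6 ± 3.11 to 13.3 ± 0.94 FPKM (log2 difference -1.74, adjusted p = 2.38e-11 in limma). The decoy receptor gene Il1r2 measured 4.15 and 4.998 FPKM and did not pass.

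Genes downstream of Tnf included inhibitors and ligases of its signalling that rose. Of 24 receptors and proximal signalling genes, all tested, 13 rose, 3 fell and 8 did not pass (median log2 difference 0.25), while 5 fell with quantile normalization. Over all genes tested 29.1% rose and 31.3% fell. Tnfaip3, a ubiquitin-editing inhibitor of NF-kB signalling, rose from 6.96 ± 0.98 to 49.6 ± 1.52 FPKM (log2 difference 2.67, adjusted p = 3.63e-12 in limma). The ubiquitin ligase genes Birc2 (5.55 to 23.2 FPKM) and Birc3 (14.96 to 40.9 FPKM) and the caspase inhibitor gene Cflar (13.7 to 43.8 FPKM) rose as well. Casp8 (25.1 and 24.3 FPKM) and Rbck1 (17.3 and 17.4 FPKM) did not pass. The receptors that bind Tnf, named after their values were seen, moved apart. Tnfrsf1a, the receptor with a death domain, fell from 52.1 ± 2.60 to 40.7 ± 2.14 FPKM (log2 difference -0.35, adjusted p = 3.99e-05 in limma), and Tnfrsf1b rose from 137 ± 9.70 to 348 ± 15.9 FPKM (1.34, adjusted p = 9.74e-11).

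Regulators of Tnf mRNA decay and translation went in both directions, as did all genes tested (29.1% rose and 31.3% fell). Of 13 tested, 5 rose, 5 fell and 3 did not pass, with a median log2 difference of -0.09 and a mean of 0.21. Scaled to a common sum 1 fell, and with quantile normalization 6 fell. Zc3h12a, the RNase Regnase-1, rose from 12.1 to 43.1 FPKM. Mapkapk2, a kinase that stabilises Tnf mRNA, rose from 74.8 ± 3.32 to 191 ± 12.3 FPKM (log2 difference 1.34, adjusted p = 6.62e-11 in limma). Members of the tristetraprolin family, which bind AU-rich elements and speed decay, went in different directions, since Zfp36l1 rose from 37.1 to 106 FPKM and Zfp36l2 fell from 105 to 34.0 FPKM. Zfp36 itself, named after its values were seen, rose from 19.4 to 35.7 FPKM. Khsrp (43.6 and 41.0 FPKM) and Elavl1 (6.76 and 7.32 FPKM) did not pass.

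Of 13 genes of Tnf transport and exocytosis analysed 12 were tested, and Rab37 was under the filter. Of the 12, 3 rose, 5 fell and 4 did not pass (median log2 difference -0.06, mean 0.14). Scaled to a common sum 3 fell, and with quantile normalization 7 fell. Stx11, a syntaxin of immune cells, rose from 2.73 ± 0.47 to 22.7 ± 0.63 FPKM (log2 difference 2.68, adjusted p = 7.61e-12 in limma), and the vesicle priming gene Unc13d from 8.55 to 14.2 FPKM. Vamp3, which serves the recycling endosome route of Tnf to the surface, fell from 29.7 to 20.9 FPKM, and Litaf, named for an effect on Tnf transcription, from 119 to 68.3 FPKM. Stx4a (43.3 and 42.1 FPKM) and Stxbp2 (35.1 and 32.9 FPKM) did not pass. After shedding, the stub left in the membrane is cut by intramembrane proteases. Of these, Sppl2a rose from 25.8 ± 1.23 to 38.5 ± 3.12 FPKM (log2 difference 0.56, adjusted p = 1.81e-06 in limma), while Sppl2b measured 6.80 and 5.83 FPKM and did not pass.

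**Figure D5:**
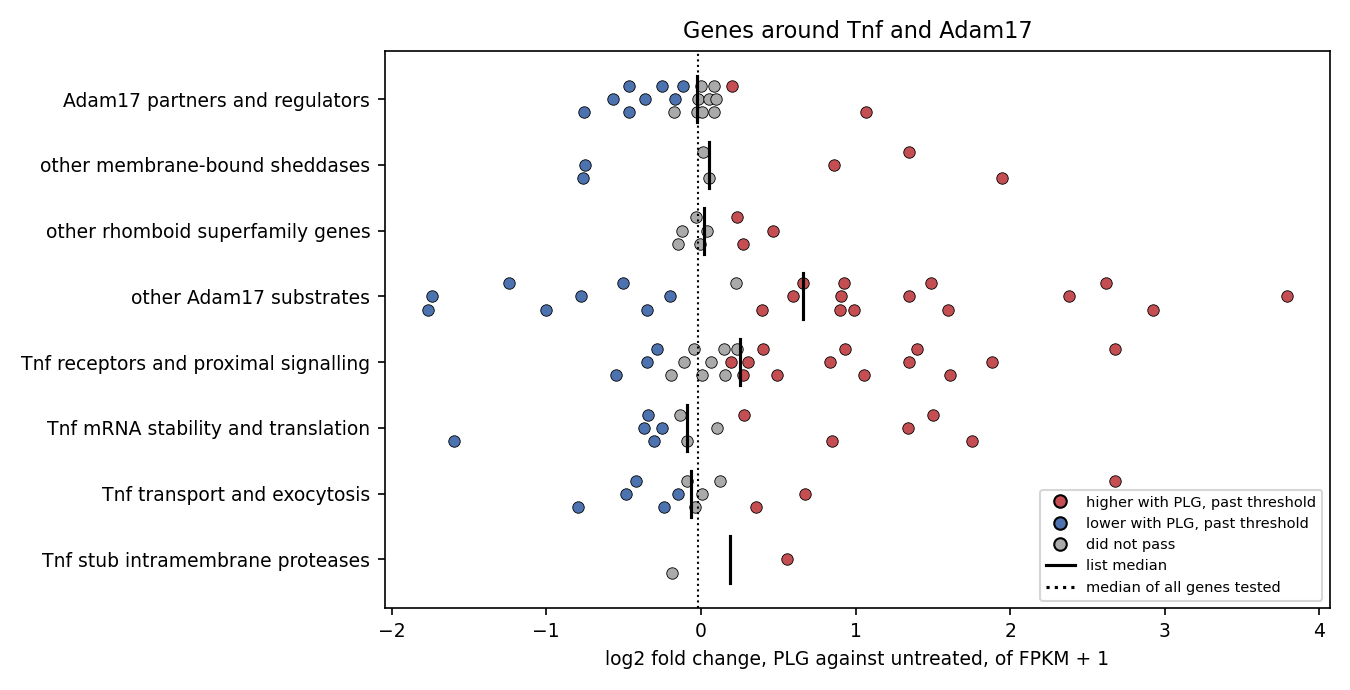
Log2 fold change of FPKM + 1 between PLG and untreated samples (horizontal) for each tested gene of 8 lists around Tnf and Adam17. Red points rose, blue points fell and grey points did not pass. Solid ticks are list medians, from -0.09 to 0.66, and the dotted line is the median of all genes tested.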

How the data were processed

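Values were FPKM per gene, made and deposited by the authors with gene length and position. Per the submitters' processing notes, the build was GRCm38.p6 and the tools, given with no role or order, were DESeq2 1.24.0, STAR 2.7.3a, featureCounts 2.0.0, FastQC 0.11.9 and cutadapt 2.10. No source used here states the annotation release or strand setting, and 16485 gene identifiers occur in GENCODE M21. For the 803 to 3269 values per sample precise enough to test, FPKM times length fell on whole multiples of 1 read (100% within 0.1 read), which gave the reads behind each value. With R 4.3.3, limma 3.58.1 (intensity trend) compared the groups on log2(FPKM + 1), for genes with 1 FPKM in at least 5 of 10 samples, with Benjamini-Hochberg adjustment over all 9997 and a threshold of 0.05. Single values also had exact permutation tests. The fit was tested on simulated data. Alternatives were other pseudocounts, filters, scalings, moderation, the replicate block, voom on recovered reads and left-out samples. Named genes were, per list, up to 4 with the smallest p and up to 2 abundant ones that did not pass, plus neighbours and the most alike genes. Genes, lists and tests were chosen with earlier results of these data known, so the list counts are no independent support. A listed substrate under the filter is not reported here.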

Additional observations from a re-analysis of the deposited data

How the results depend on the processing

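Tnf (log2 difference 2.74 to 3.15, adjusted p up to 7.05e-09 in limma) and Rhbdf2 (0.457 to 0.595, up to 7.17e-04) passed under all 23 alternatives, and Rhbdf1 passed under none of the 21 that gave it a value (a filter of 5 FPKM gave none). Adam17 lost its call when scaled to a common sum (0.188, adjusted p = 0.18 in limma), with quantile normalization (0.028, 0.615), without the repeat-like gene models (0.075, 0.159) and without untreated 2, PLG 3 and PLG 4 together (0.143, 0.0767). The latter settings, without the gene models and without the 3 samples, were chosen after seeing the data. Leaving out each sample in turn gave 0.115 to 0.162 for Adam17. The cause of these losses was not tested. The number of genes called was lowest with a filter of 5 FPKM, at 4318 of 6356 tested (67.9%). It was highest without the filter, at 6755 of 16927 (39.9%), so the share called moved the other way. Among the lists, the common sum left 1 partner of Adam17 higher and 5 lower, 1 rhomboid gene higher, 1 regulator of Tnf mRNA lower and 3 transport genes lower. Median-of-ratios scaling and voom on recovered reads each called 4 partners higher. Quantile normalization called 1 partner higher, and 12 partners, 7 transport genes and 6 regulators of Tnf mRNA lower. Quantile normalization and the fit without the repeat-like models each called 1 rhomboid gene and 5 signalling genes lower, and without untreated 2, PLG 3 and PLG 4 the rhomboid genes higher numbered 1. Leaving out each sample in turn called 0 to 1 stub protease lower. The ratio of Rhbdf2 to Rhbdf1 lost its call with a pseudocount of 0.1 (0.274, exact permutation p = 0.278). Same-numbered samples did not deviate together (correlations -0.121 to 0.099 over 5 pairs, and 1 of 5 untreated samples correlated best with its own number). No pairing by number showed in these values, and no label states whether same-numbered samples share a mouse or a culture. A replicate block called 5785 of 9997 genes (57.9%) and gave Adam17 an adjusted p of 0.0463 in limma. With the block, the log2 ratios of Rhbdf2 to Rhbdf1 (0.499) and Tnf to Adam17 (2.903) had an exact permutation p of 0.0625, the smallest that 5 pairs can give. Depth limited Rhbdf1, with 1 to 44 reads a sample. Among named genes that did not pass, P4hb passed without untreated 2, Stxbp2 without untreated 3, Sppl2b without untreated 5 and Sh3pxd2b without PLG 3.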

Other observations

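Further known substrates of Adam17 are named here after their values were seen. Among precursors of ligands of the epidermal growth factor receptor, Areg was at 0 to 0.283 FPKM in untreated and 1.19 to 2.92 FPKM in PLG samples, and Hbegf measured 0.661 ± 0.219 and 2.102 ± 0.331 FPKM (SD, n = 5 each), while Epgn was under the filter at 0.0368 and 0.0442 FPKM. The adhesion and chemokine genes Icam1 (21.4 to 61.5 FPKM) and Cx3cl1 (1.68 to 18.6 FPKM) rose. The receptor Mertk, which mediates uptake of dying cells, fell from 23.5 ± 2.13 to 6.19 ± 0.546 FPKM, Lrp1 from 127 to 63.0 FPKM and Il6ra from 6.58 to 2.20 FPKM. Icam1, Cx3cl1, Mertk, Lrp1 and Il6ra passed in limma (adjusted p from 1.27e-10 to 3.23e-08). Areg and Hbegf entered the test only through the PLG samples and had to differ, so their values are a description.

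Of the substrates under the filter, the scavenger receptor gene Cd163 measured 1.03 ± 0.226 FPKM in untreated and 0.148 ± 0.0784 FPKM in PLG samples, with no overlap between groups. In the fit without the filter, where 39.9% of 16927 genes passed in either direction, its log2 difference was -0.815 (adjusted p = 1.45e-05 in limma). Tnfsf11 had no read in untreated samples and 64 reads over the PLG samples, at least 1 of which also had none, and it did not pass in a fit without the filter (adjusted p = 0.0906 in limma).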
